A study of Drosophila melanogaster with 14 samples.

Results

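The transient receptor potential channel genes trp and trpl, the scaffold gene inaD, the eye protein kinase C gene inaC and the sodium/calcium exchanger gene Calx were followed across Drosophila melanogaster heads and an immunoprecipitate of photoreceptor RNA. A probe set belonged to the group if the platform's gene table gave it exactly 1 of these symbols. Each gene had 1 such probe set, so that 5 of 13966 probe sets and 5 of 10844 genes were described. The rule goes by gene name and uses no signal of these arrays, though it was drawn up with earlier results of these data known. RNA was hybridised to 14 single-colour Affymetrix arrays in 3 groups. The IP group (4 arrays) held RNA pulled down with poly(A)-binding protein (PABP) that carried a FLAG tag, from flies with the Rh1-GAL4 driver and a UAS-PABP-FLAG transgene, and its labels call it photoreceptor cells R1-R6. The Rh1 heads (4 arrays) were whole heads of the same genotype, and the CS heads (6 arrays) were whole heads of the wild-type strain Canton-S, which carry neither driver nor transgene.

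Rh1 is the opsin of the outer photoreceptors R1-R6, so its promoter drives the tagged protein in those cells, and the inner photoreceptors R7 and R8 are not targeted. The labels name the transgene both as UAS-dPABP-FLAG and as UAS-hPABP-FLAG, and this was not settled. Heads for IP, about 200 per sample, spent 30 min in 1% formaldehyde and were sonicated before the pull-down, while about 100 heads per whole-head sample went straight into Trizol. How the array targets were made from the IP RNA, and the age and sex of the flies and the genetic background of the transgenic line, were not given in the sources used here. Tissue, fixation and RNA recovery therefore cannot be told apart in comparisons with IP, nor transgene and background in comparisons of Rh1 heads with CS heads. In all of these bulk samples, fewer photoreceptors and less RNA per photoreceptor cannot be told apart.

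In fly photoreceptors light activates rhodopsin, a Gq protein and phospholipase C, and the signal ends in the opening of the TRP and TRPL cation channels in the rhabdomere, the microvillar light-sensing membrane. TRP carries most of the calcium influx. INAD is a PDZ-domain scaffold that holds TRP, phospholipase C and the eye protein kinase C in 1 complex, the kinase is needed to end the response, and CALX moves calcium out of the cell in exchange for sodium. In the RefSeq gene table for assembly Release 6, trp and Calx lie on chromosome arm 3R, and trpl, inaD and inaC on 2R.

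Median intensities as deposited were 180.1 to 201.8, and the arrays were scaled by factors of 0.923 to 1.11. The medians of the IP arrays, 180.1 to 191.0, were below those of all head arrays, of which the lowest was 192.0. Among the 9776 probe sets bright enough to test, the median SD of log2 values was 0.222 in IP, 0.0978 in Rh1 heads and 0.0962 in CS heads. In a control of RNA length, the 5′ over 3′ signal of eIF-4a, IP replicates 1 to 4 had 0.531, 0.0284, 0.209 and 0.0432, against 0.604 to 0.678 in Rh1 heads and 0.444 to 0.593 in CS heads. For eIF-4a, IP replicates 2, 3 and 4 were below all head arrays, and replicate 1 was within the range of CS heads. For the GAPDH and ACTIN controls every IP array, replicate 1 included, was below all head arrays. The highest IP ratios were 0.202 and 0.135, and the lowest head ratios, both in CS heads, were 0.291 and 0.317. Photoreceptor markers other than the 5 genes were brightest in IP as a sum. The signals of 7 of 7 marker genes summed to 11849 to 18366 in IP, 3474 to 3909 in Rh1 heads and 5311 to 6714 in CS heads. Most of that sum is that of 1 bright gene, chp (means of 8518 in IP, 2279 in Rh1 heads and 4261 in CS heads). eys and oc overlapped between the groups in every comparison. In Rh1 heads versus CS heads 5 of the 7 were lower and prom was higher (log2 fold 0.61, limma adjusted p = 4.3e-07). Of all tested probe sets 29.7% were lower and 24.4% higher there. Whether replicates are separate collections of flies is not said in the labels, so p-values refer to the spread between these arrays alone. That spread may be technical, and the small number of arrays limits precision.

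Signals below are scaled intensities on the linear scale of the deposited table. They compare 1 probe set between arrays, and the level of 1 probe set says nothing about that of another.

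The probe set of trp (143383_at), the gene of the main light-activated channel, had signals of 8523, 7408, 7418 and 2679 on IP replicates 1 to 4. In Rh1 heads trp had 1049, 1117, 1087 and 1194, and in CS heads the lowest, median and highest of 6 arrays were 5776, 6476 and 6903. Every IP array and every CS head array lay above every Rh1 head array, and 3 of the 4 IP arrays lay above all CS head arrays while replicate 4 lay below all of them. The means were 6507 ± 2605 in IP (SD, n = 4), 1112 ± 61.2 over the Rh1 heads (SD, n = 4) and 6431 ± 394 over the CS heads (SD, n = 6).

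The second channel gene, trpl (143554_at), had 5911, 5513, 5375 and 3951 on IP replicates 1 to 4. Rh1 heads had 754.2, 771.8, 690.1 and 743.1, and CS heads had a lowest value of 7035, a median of 7296 and a highest of 7801. For trpl the 3 groups did not overlap at all: CS heads were highest, IP lay between, and Rh1 heads were lowest. Its spread in IP was the smallest among the 5 genes, with an SD of 0.26 on the log2 scale.

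The scaffold gene inaD (143203_at) had 4015, 3996, 3540 and 1966 on IP replicates 1 to 4. Rh1 heads were nearly constant at 592.8, 588.0, 559.2 and 600.2, and CS heads ran from 3401 through a median of 3686 to 3945. The pattern resembled that of trp. IP replicates 1 and 2 were above all CS head arrays, replicate 3 was among them and replicate 4 was below them, with Rh1 heads far below both.

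The kinase gene inaC (152951_at) varied most within IP, where replicates 1 to 4 had 4102, 2016, 3134 and 635.0, an SD of 1.16 on the log2 scale that 99.1% of the tested probe sets did not reach. Rh1 heads had 654.3, 664.8, 721.6 and 687.1, and CS heads had 3097, 3459 and 4081 as lowest, median and highest. All Rh1 head arrays were below all CS head arrays. IP crossed both groups: replicate 1 was above every CS head array, and replicate 4 was below every Rh1 head array.

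Calx (143737_at), the exchanger gene, had 738.2, 223.5, 514.6 and 865.8 on IP replicates 1 to 4. Rh1 heads had 381.8, 350.2, 350.2 and 452.9, and CS heads ran from 428.6 through a median of 577.6 to 631.4. The groups overlapped in every comparison, and the IP arrays held both the lowest and the highest value of all 14. IP replicate 4, the lowest of IP for each of the other 4 genes, was the highest for Calx.

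**Figure D1:**
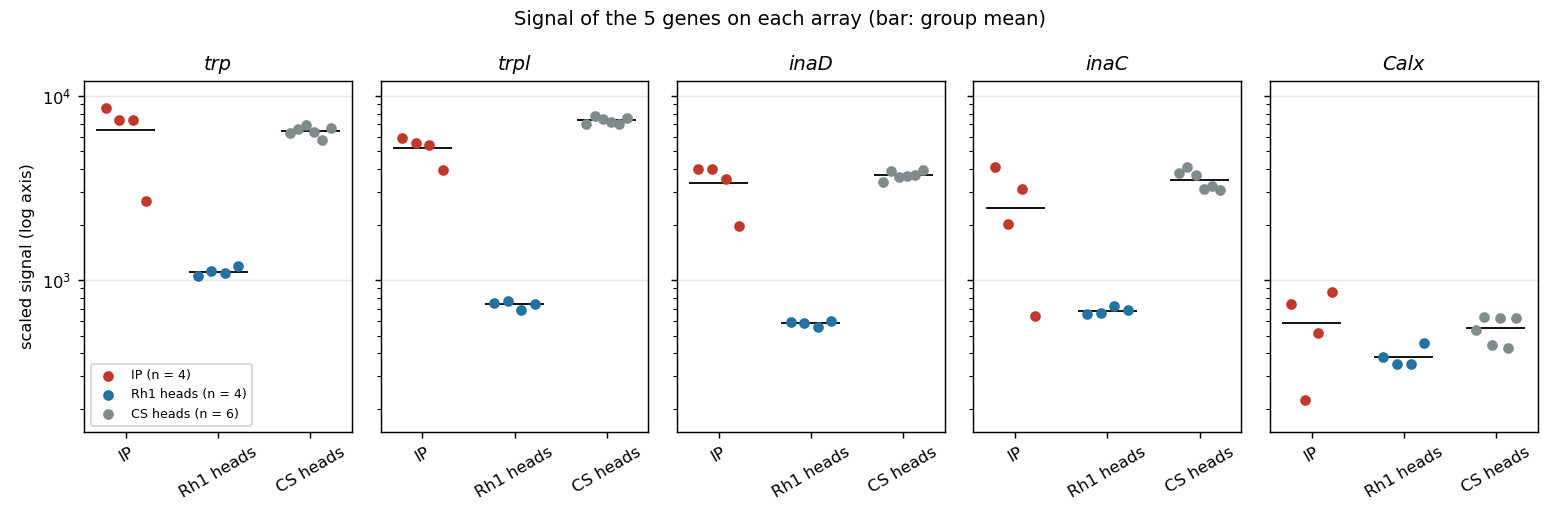
Scaled signal (log axis) of trp, trpl, inaD, inaC and Calx on each array, by group (IP, Rh1 heads, CS heads; points are arrays, bars are group means). The 4 Rh1 head arrays of trp, trpl, inaD and inaC sit between 559.2 and 1194, below every CS head array of the same gene, and IP spreads widely for inaC and Calx.

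IP was set against Rh1 heads to ask how far each transcript was enriched by the pull-down over whole heads of its own genotype. Of the 5 genes, trp, trpl, inaD and inaC were higher in IP and Calx did not pass the test. In the same comparison 21.8% of all tested probe sets were higher and 25.6% lower (limma, two-sided, Benjamini-Hochberg adjusted p under 0.05 over all 9776), so being called is common here. A call with a rise of at least 2-fold was made for 7% of the tested probe sets, and all 4 genes were among them. All fold changes are differences of log2(signal + 32) and understate changes of dim probe sets.

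The largest rise was that of trpl, with a log2 fold of 2.74 (SE 0.14, limma adjusted p = 6.98e-07), and 21 probe sets had a higher fold. For inaD it was 2.41 (SE 0.21, limma adjusted p = 1.7e-05), with 47 above it, and for trp 2.39 (SE 0.33, limma adjusted p = 0.000254), with 50 above it. In these 3 genes all IP arrays were above all Rh1 head arrays, as in 20.9% of the tested probe sets. Over the other processing settings and with any 1 array left out, these folds ran from 2.68 to 3.15 for trpl, 2.31 to 2.65 for inaD and 2.22 to 2.80 for trp, and all stayed past the threshold.

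inaC rose less, with a log2 fold of 1.53 (SE 0.48, limma adjusted p = 0.0251), and its groups overlapped. This call held in 2 of 8 fits with 1 array left out, with 1.19 (limma adjusted p = 0.0483) without IP replicate 1 and 2.07 (limma adjusted p = 2.3e-05) without IP replicate 4. Leaving out IP replicate 2 gave 1.53 (limma adjusted p = 0.055), IP replicate 3 gave 1.32 (0.0679), and leaving out any 1 Rh1 head array gave 1.51 to 1.55 (0.0519 to 0.0592). Without IP replicates 2 and 4 together the fold of inaC was 2.34 (limma adjusted p = 3.34e-07). In that fit inaD had 2.62, trp 2.80 and trpl 2.88. The call of inaC held in all 12 alternatives other than leaving out 1 array. Calx had a log2 fold of 0.43 (SE 0.34, 95% interval -0.33 to 1.19, limma adjusted p = 0.325). Without IP replicate 2, on which Calx was lowest, the fold was 0.81 (limma adjusted p = 0.0071), and without replicates 2 and 4 it was 0.65 (limma adjusted p = 0.00483).

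**Figure D2:**
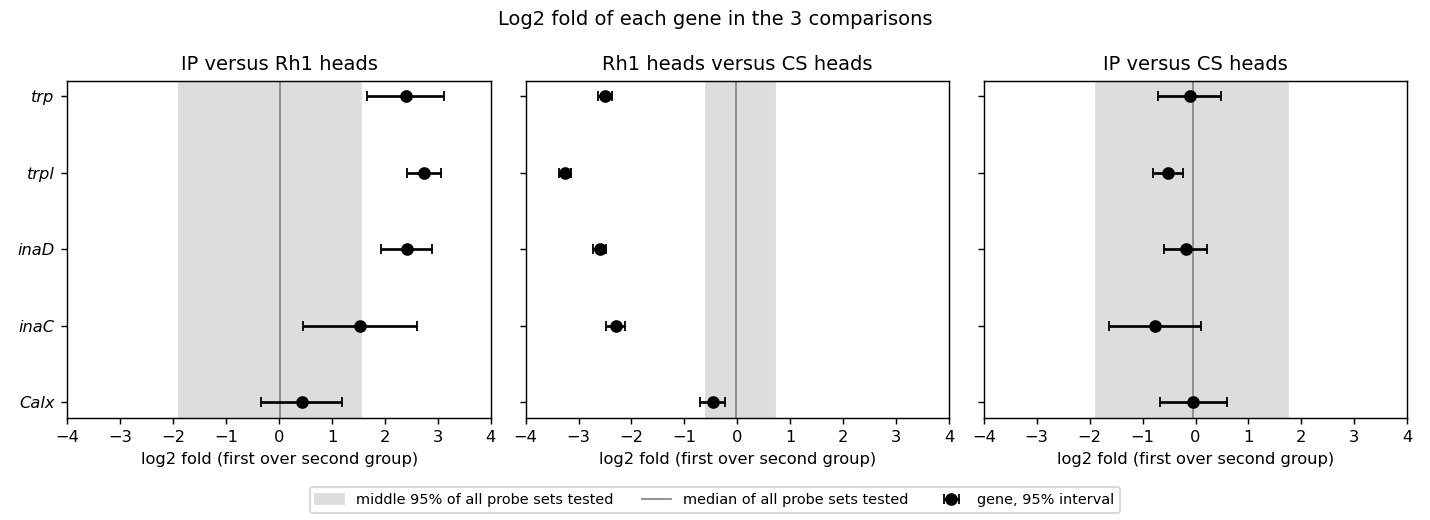
Log2 fold of each gene with its 95% interval in IP versus Rh1 heads, Rh1 heads versus CS heads and IP versus CS heads, with the range of the middle 95% of all tested probe sets in grey and their median as a line. In IP versus Rh1 heads trp, trpl and inaD lie beyond the grey range, in Rh1 heads versus CS heads trp, trpl, inaD and inaC do, and in IP versus CS heads none does.

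The signals of the 5 genes were not even over the 4 IP arrays. As multiples of the Rh1 head mean, trpl stood at 7.99, 7.45, 7.27 and 5.34 on replicates 1 to 4, trp at 7.67, 6.66, 6.67 and 2.41, and inaD at 6.86, 6.83, 6.05 and 3.36. inaC stood at 6.02, 2.96, 4.60 and 0.931, and Calx at 1.92, 0.583, 1.34 and 2.26. Thus trp, trpl and inaD were close on 3 arrays and dropped on replicate 4, and inaC was low on replicates 2 and 4, which also had the lowest 5′ over 3′ control ratios. On replicate 4 bright probe sets as a whole (549 with a mean of at least 2000 on the other 3 IP arrays) were dimmer, by a median log2 difference of -0.59 with a 5th to 95th percentile range of -2.52 to 0.29. Measured the same way, trp differed by -1.53, trpl by -0.50, inaD by -0.96, inaC by -2.22 and Calx by 0.78. The part of RNA length in these differences was not tested.

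**Figure D3:**
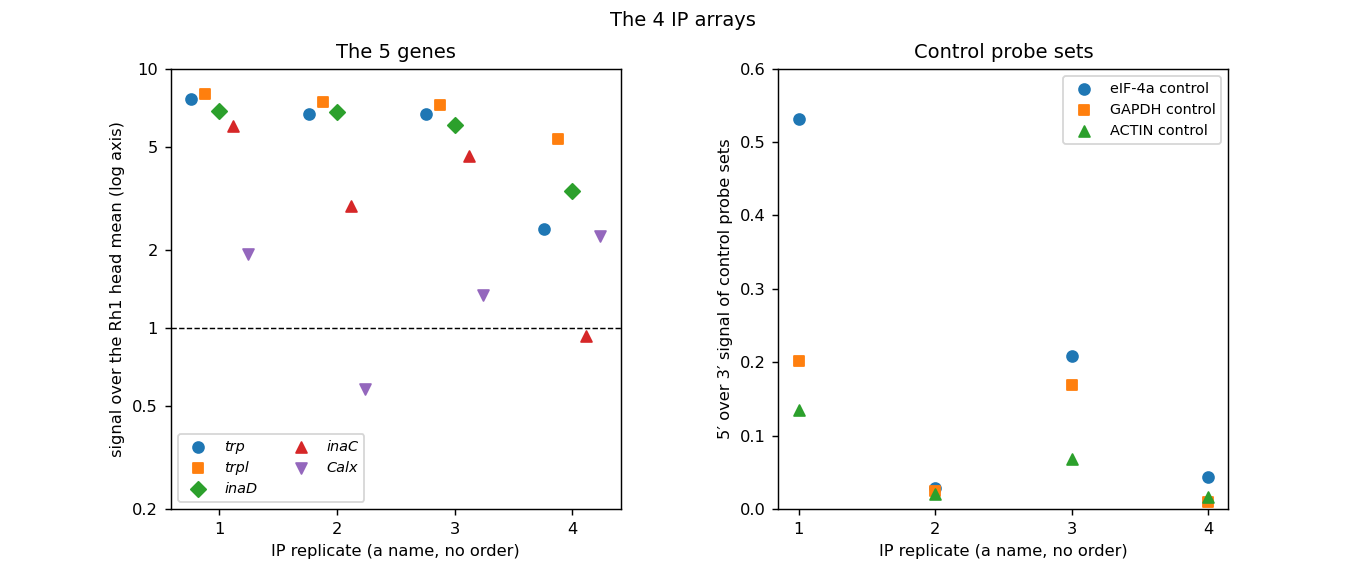
Left, signal of each gene on the 4 IP arrays over its Rh1 head mean (log axis, dashed line at 1). Right, 5′ over 3′ signal of 3 control genes on the same arrays, which is lowest on replicates 2 and 4, where inaC stands at 2.96 and 0.931 times its Rh1 head mean.

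The other cell types of the head moved with IP as well. The counts below stand beside 21.8% higher and 25.6% lower among all tested probe sets in IP versus Rh1 heads. Of the marker lists, 5 of 7 tested photoreceptor genes were higher in IP than in Rh1 heads and none was lower, led by Pph13, a homeodomain regulator of photoreceptor genes (log2 fold 3.03), and Hdc, which makes the photoreceptor transmitter histamine (2.84). All 10 tested muscle genes were lower, among them up, a troponin T (-3.62, and -0.34 in its other probe set), and Prm, paramyosin (-3.17). In fat body 6 of 7 were lower, with apolpp, a lipoprotein (-3.66, and -2.06 in its other probe set), and fit (-3.21) ahead, and among transmitter genes of other neurons 7 of 7 were lower, with Gad1, which makes GABA (-3.24), and Vmat, a monoamine transporter (-1.72), ahead. Glia were mixed, with 2 of 8 higher, 3 lower and 3 not passing (Gat -3.30, nrv2 1.18), and of 3 pan-neuronal genes 1 was lower and 2 were not past the threshold (Syn -2.83, brp -0.85 with limma adjusted p = 0.103). The other probe set of brp was higher in IP (0.44, limma adjusted p = 0.0101).

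In sums, muscle (10 of 12 planned markers on the array) had 6227 to 7819 in IP, 36981 to 40747 in Rh1 heads and 28767 to 45782 in CS heads. Fat body (7 of 8) had 12256 to 25166 in IP, 90962 to 100744 in Rh1 heads and 106654 to 121440 in CS heads. Glia (8 of 9) had 7260 to 12797 in IP, 14311 to 16248 in Rh1 heads and 14582 to 16021 in CS heads. Other neurons (7 of 9) had 1868 to 2950 in IP, 5948 to 6765 in Rh1 heads and 5304 to 6541 in CS heads. Sums of IP lay below those of both kinds of heads for these 4 cell types. The pan-neuronal sum (4 of 6) did not: it was 892 to 2486 in IP and overlapped both kinds of heads. It was 2408 to 2797 in Rh1 heads and 2042 to 2701 in CS heads. The glial sum is mostly that of 1 bright gene, Gs2 (means of 6412 in IP and 11722 in Rh1 heads). In IP versus CS heads 4 of 8 glial genes were higher and 3 lower, with a median log2 fold of 0.27. Of all tested probe sets 26.5% were higher and 34.4% lower there, with a median of -0.05. Gs2 was singled out after its values were seen, and no marker was at 0 on every array of a group. What part these cells have in the folds of the 5 genes was not tested.

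Next, heads with driver and tagged protein were set against wild-type heads (Rh1 heads versus CS heads). All 5 genes fell, trp, trpl, inaD and inaC steeply and Calx slightly. Here 29.7% of the tested probe sets were lower and 24.4% higher, but 0.696% were called and at least 2-fold lower, and trp, trpl, inaD and inaC are among those 68. Mean signals in Rh1 heads were 10.1% of those in CS heads for trpl, 15.8% for inaD, 17.3% for trp, 19.5% for inaC and 70.2% for Calx.

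trpl had the steepest fall of all 9776 tested probe sets, a log2 fold of -3.26 (SE 0.06, limma adjusted p = 3.71e-14). inaD (-2.60, SE 0.06, limma adjusted p = 6.89e-13) had 3 probe sets below it, trp (-2.50, SE 0.06, limma adjusted p = 1.31e-12) had 4 and inaC (-2.30, SE 0.08, limma adjusted p = 7.35e-11) had 7. For these 4 genes every Rh1 head array was below every CS head array, as for 20.6% of the tested probe sets. Calx had a log2 fold of -0.47 (SE 0.11, 95% interval -0.71 to -0.23, limma adjusted p = 0.00319), its groups overlapped, and 469 probe sets fell further. With all 14 arrays in 1 fit, which adds the wider spread of IP, the fold of Calx was the same and its limma adjusted p was 0.187. IP versus Rh1 heads and Rh1 heads versus CS heads share the Rh1 head arrays, so a low level there enters both, with opposite sign.

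Between IP and CS heads the same genes were much closer. Only trpl passed the test: it was lower in IP, with a log2 fold of -0.51 (SE 0.13, limma adjusted p = 0.00441), where 34.4% of all tested probe sets were lower and 26.5% higher. In the simulated data described below, with 200 of 9776 probe sets changed, 37.6% of the calls in IP versus CS heads were false, the largest share of the comparisons. Far more probe sets were called on the real arrays, so this share does not carry over to the call of trpl. Every IP array of trpl was below every CS head array, as in 27.9% of the tested probe sets, but with quantile normalization the fold was 0.042 (limma adjusted p = 0.714). For trp the fold was -0.11 (SE 0.27, 95% interval -0.71 to 0.49, limma adjusted p = 0.749) over 4 IP arrays, and without IP replicate 4 it was 0.27 (limma adjusted p = 0.00745), a rise. inaD had -0.19 (SE 0.18, interval -0.59 to 0.22), inaC -0.77 (SE 0.40, interval -1.64 to 0.10) and Calx -0.039 (SE 0.29, interval -0.68 to 0.60), with limma adjusted p-values of 0.4, 0.113 and 0.917. Without IP replicate 1, the highest for inaC, its fold was -1.11 (limma adjusted p = 0.0227), and without replicates 2 and 4 it was 0.044 (limma adjusted p = 0.779). As a share of the CS head mean, IP stood at 107% for Calx, 101% for trp, 91.1% for inaD, 70.7% for inaC and 70.7% for trpl.

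Whether the genes differ from each other in these changes was tested within arrays, on the difference between the log2 values of 2 genes, for all 10 pairs in each comparison (exact permutation tests over arrays, two-sided, adjusted over the 10 pairs). Scaling of an array cancels in such a difference up to the added 32. In IP versus Rh1 heads 7 of 10 pairs passed, each at the smallest p that 4 against 4 arrays allow (exact p = 0.0286, adjusted 0.0408). The rise of trpl exceeded that of inaD by 0.33, of inaC by 1.22 and of Calx by 2.31. The rise of trp exceeded that of inaC by 0.86 and of Calx by 1.96, and that of inaD exceeded inaC by 0.89 and Calx by 1.98. So trp, trpl and inaD each rose more than inaC and than Calx over all 4 IP arrays. However, trp against Calx lost its call with an added constant of 1 (exact permutation, adjusted p = 0.107) and with an added constant of 16, unscaled values or median scaling (0.0816 each). The differences of trp, trpl and inaD from inaC were all larger on IP replicates 2 and 4 than on 1 and 3. For inaD minus inaC they were -0.03 and 0.17 on replicates 1 and 3, and 0.98 and 1.58 on replicates 2 and 4. Rh1 heads had -0.35 to -0.14. trp against trpl (-0.35, adjusted p = 0.159), trp against inaD (-0.023, adjusted p = 0.914) and inaC against Calx (1.10, adjusted p = 0.159) did not pass in the exact permutation test.

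In Rh1 heads versus CS heads 8 of 10 pairs passed. trpl fell further than each of the other 4, with differences of folds of 0.76 for trp minus trpl, -0.66 for trpl minus inaD, -0.96 for trpl minus inaC and -2.79 for trpl minus Calx. Each had the smallest p of 4 against 6 arrays (exact p = 0.00952, adjusted 0.0136). Calx fell less than the others, with -2.03 for trp minus Calx, -2.13 for inaD minus Calx and -1.83 for inaC minus Calx, at the same exact permutation p. inaD fell further than inaC (inaD minus inaC -0.30, exact permutation, adjusted p = 0.0238), a call lost without Rh1 head replicate 2, 3 or 4 (adjusted 0.0529 to 0.0595). trp against inaD (0.10) and trp against inaC (-0.20) had adjusted p-values of 0.0762 and 0.0635 in the exact permutation test. In IP versus CS heads 0 of 10 pairs passed in the exact permutation test, and 2 had an unadjusted p under 0.05, trp against inaC (0.66, p = 0.019) and trpl against inaD (-0.33, p = 0.0476).

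The 2 channel genes show this on single arrays. The within-array difference of trp minus trpl was 0.53, 0.42, 0.46 and -0.56 on IP replicates 1 to 4, ran from 0.46 to 0.66 in Rh1 heads, and from -0.28 to -0.11 in CS heads. On 3 IP arrays it was thus above every CS head array, and on replicate 4 below every one. The difference of trpl minus inaD was 0.55, 0.46, 0.60 and 1.00 in IP, 0.29 to 0.37 in Rh1 heads and 0.92 to 1.04 in CS heads. For this pair IP lay above Rh1 heads on all 4 arrays, and replicate 4 alone reached the range of CS heads.

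**Figure D4:**
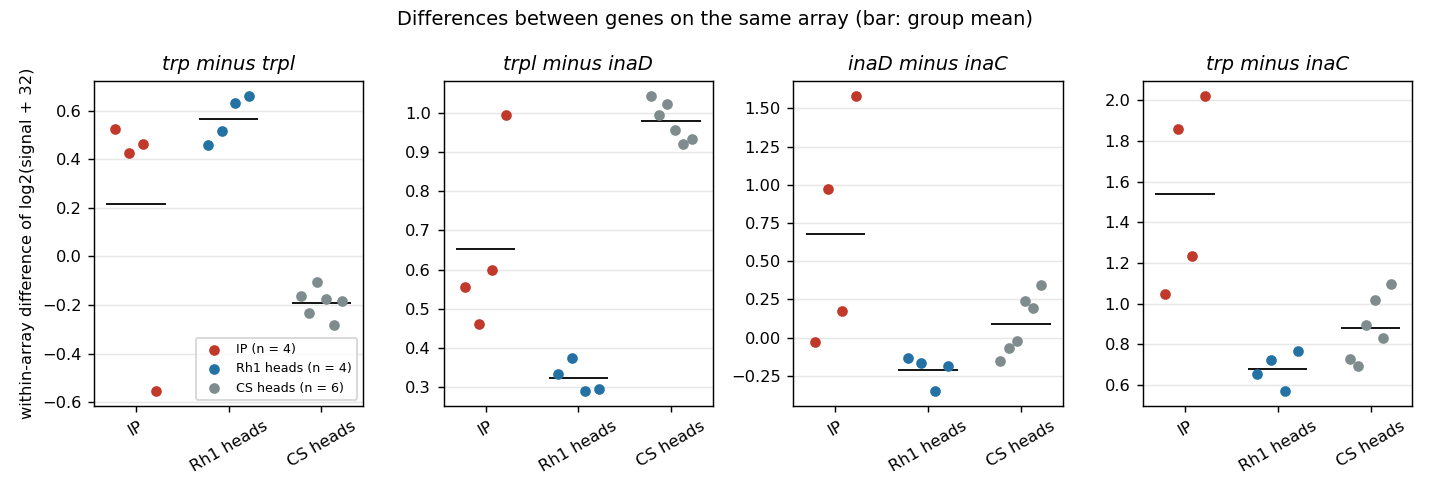
Within-array differences of log2(signal + 32) for trp minus trpl, trpl minus inaD, inaD minus inaC and trp minus inaC, by group (IP, Rh1 heads, CS heads; points are arrays, bars are group means). Rh1 head arrays lie above all CS head arrays for trp minus trpl (0.46 to 0.66 against -0.28 to -0.11) and below them for trpl minus inaD.

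Counts of related genes are read against the shares of all tested probe sets given above (21.8% higher and 25.6% lower for IP versus Rh1 heads, 24.4% higher and 29.7% lower for Rh1 heads versus CS heads, 26.5% higher and 34.4% lower for IP versus CS heads). Other genes of the light response went both ways. Of 24 planned genes 17 were on the array under a symbol of their own and 16 were tested (Itpr was too dim, and ninaA, inaF-B, Cam, Gprk1, ninaC, norpA and ninaE were not analysed here). In IP versus Rh1 heads 5 were higher, 5 lower and 6 not past the threshold, and their median log2 fold was 0.14 against 0.01 over all tested probe sets. stops, needed for phospholipase C protein levels, rose by 3.12 (SE 0.11, limma adjusted p = 1.57e-07), with 3326 ± 413 in IP and 352.6 ± 19.5 in Rh1 heads (SD, n = 4 each). Its other 2 probe sets had 1.00 and 0.30 (limma adjusted p = 0.103 and 0.712). rtp, which encodes retinophilin of the rhabdomere, rose by 2.47 (SE 0.12, limma adjusted p = 5.57e-07), and Gbeta76C, the eye Gβ subunit, by 2.26 (SE 0.49, limma adjusted p = 0.00443).

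In Rh1 heads versus CS heads 3 of the 16 were higher, 11 lower and 2 not past the threshold, and their median log2 fold was -0.52 against -0.02 over all tested probe sets. Ggamma30A, the eye Gγ subunit, fell by 2.35 (SE 0.06, limma adjusted p = 1.03e-12), with 1160 ± 70.6 (SD) on the 4 Rh1 head arrays and 6024 ± 205 (SD) on the 6 CS head arrays. Gbeta76C had a log2 fold of -2.22 (SE 0.09, limma adjusted p = 2.15e-10) and rtp one of -2.05 (SE 0.07, limma adjusted p = 3.06e-11). In IP versus CS heads 3 were higher and 8 lower, with a median of -0.52 against -0.05.

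The relatives of trp and trpl also went both ways. Of 12 other genes of the TRP superfamily 10 were on the array and 8 were tested. In IP versus Rh1 heads 2 were higher (TrpA1, a heat and irritant sensor, 0.57, limma adjusted p = 0.00233, and iav, of hearing, 0.45, limma adjusted p = 0.0217), 2 lower and 4 not past the threshold, and the median log2 fold was 0.073. These shares are near those of all tested probe sets, 21.8% higher and 25.6% lower. The largest fold, -0.72 for wtrw (limma adjusted p = 0.000818), had 0.07 in its other probe set (limma adjusted p = 0.576). In Rh1 heads versus CS heads 1 was higher, pain, a nociception channel (0.51, limma adjusted p = 4.21e-06), 4 were lower, among them nan, of hearing (-0.36), and Trpgamma (-0.34), and 3 did not pass. All 8 log2 folds lay between -0.72 and 0.57 for IP versus Rh1 heads, and between -0.36 and 0.51 for Rh1 heads versus CS heads. Between IP and CS heads 1 was higher and 2 lower.

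Of the 5 other protein kinase C genes none was higher in IP than in Rh1 heads (0 also at an unadjusted limma p under 0.05) and 3 were lower. aPKC, the atypical kinase of cell polarity, fell by 1.26 (limma adjusted p = 4.22e-06), Pkn by 1.21 (limma adjusted p = 0.00528) and Pkcdelta by 0.39 (limma adjusted p = 0.0139), while the other probe set of Pkcdelta rose by 0.39 (limma adjusted p = 0.025). In Rh1 heads versus CS heads aPKC alone passed by the brightest probe set of each gene, and it was higher (0.85, limma adjusted p = 3.49e-07). The other probe set of Pkcdelta was lower there (-0.25, limma adjusted p = 0.00812). Pkc53E, a conventional kinase C like inaC, had log2 folds of 0.036 for IP versus Rh1 heads and -0.12 for Rh1 heads versus CS heads (limma adjusted p = 0.892 and 0.224). In IP versus CS heads 3 of the 5 were lower and none higher, also at an unadjusted limma p under 0.05, beside 34.4% and 26.5% of all tested probe sets.

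Among 12 tested calcium exchangers, pumps and channels other than Calx (14 planned, 13 on the array), 8 were lower in IP than in Rh1 heads and 3 higher, with a median log2 fold of -1.08. SERCA, the pump of the endoplasmic reticulum, had 937.1 ± 176 in IP and 10831 ± 879 in Rh1 heads (SD, n = 4 each), a log2 fold of -3.50 (SE 0.16, limma adjusted p = 3.68e-07). PMCA, the plasma membrane pump, had -2.53 (limma adjusted p = 4.15e-05) and RyR, the calcium release channel of muscle, -2.35 (limma adjusted p = 4.48e-07). Calx, with 0.43, did not share these falls. The summed markers of muscle, fat body, glia and other neurons given above were also lower in IP. What part these cells have in the falls of SERCA, PMCA and RyR was not tested. In Rh1 heads versus CS heads 8 of the 12 were higher and 1 lower, with a median of 0.27. They included Nckx30C, a potassium-dependent sodium/calcium exchanger (0.54, limma adjusted p = 7.64e-05, and 0.69 in its other probe set, against -2.16 and -3.60 in IP versus Rh1 heads), PMCA (0.54, limma adjusted p = 5.73e-05) and Ca-alpha1D, a voltage-gated channel (0.57, limma adjusted p = 0.00048), whereas Calx fell by 0.47. Against CS heads 3 were higher in IP and 8 lower.

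Likeness was measured as Pearson's r of log2 values across the 14 arrays, over 8706 probe sets that passed the filter and had 1 gene. It describes these arrays, which share the group differences above. The closest to trp was inaD (0.991), then Gbeta76C (0.971) and Tsp42Ej, a tetraspanin (0.968). The closest to trpl was again inaD (0.990), followed by 1 of the 4 probe sets of teq (0.976) and CG7220 (0.972), and inaD in turn was closest to trp and trpl, then to CG9547 (0.965). Thus trp, trpl and inaD named each other at or near the top, with trpl in place 4 for trp and trp in place 5 for trpl.

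inaC was closest to CG14014 (0.953), PIG-T (0.953) and the arrestin gene Arr2 (0.939), and trp came in place 5 for it (0.932). Calx stood apart: its closest were dco, a casein kinase (0.846), Aatf (0.812) and fdl (0.811), and its r with the other 4 genes was 0.283 with inaC, 0.314 with trp, 0.356 with inaD and 0.420 with trpl. Over the 10 head arrays alone, where r mostly carries the difference between Rh1 heads and CS heads, trp, trpl and inaD reached 0.9979 to 0.9995 with each other. There inaC reached 0.994 with trp and was closest to stops (0.995), trpl and trp were both followed by Ggamma30A (0.998 and 0.997), and inaD was also close to Arr1 (0.999) and rtp (0.998). Calx reached 0.763 to 0.785 with the other 4 over heads, and was closest to dbf (0.966), 1 of several probe sets of futsch (0.951) and bmm, a lipase (0.937).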

How the data were processed

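Each array carried RNA of whole heads or of an anti-FLAG immunoprecipitate, grouped by the labels. The deposited value table holds 1 linear intensity per probe set and array (14010 probe sets, 4 exact zeros, highest 31791). The algorithm and scaling the authors used to make these intensities remain not given in the sources used here, and no build is named, so no coordinates are printed. The arrays' means after trimming 2% off each end were 310.2 to 373.4, beyond a 5% tolerance, so each array was scaled to their mean, 344.7. Without 44 control probe sets, 12443 of 13966 had 1 gene in the platform's table, 327 several and 1196 none (unnamed here).

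Values were log2(signal + 32), and probe sets at or above the 30th percentile of mean log2 value were tested (9776). Each comparison used its own arrays in limma 3.58.1 (R 4.3.3, lmFit, eBayes with trend, two-sided, Benjamini-Hochberg). In the lists, genes other than the 5 are their brightest probe set, while likeness ranked every tested probe set with 1 gene. Exact permutation tests, likeness and figures used scipy 1.17.1, numpy 2.4.6, matplotlib 3.10.9 and pandas 2.3.3 under Python 3.11.15. All 5 genes were named, then the 3 largest absolute folds of each of 4 related lists in the comparisons of IP with Rh1 heads and Rh1 heads with CS heads, the 2 largest of each marker list, and the 3 most alike probe sets of each gene. Pkc53E, Gs2, chp, prom, eys, oc and the other probe sets of stops, wtrw, Pkcdelta, up, apolpp, brp and Nckx30C were added after their values were seen. The 5 genes, lists, tests and alternatives were chosen with earlier results of these data known. Alternatives were other added constants, scalings, filters and weights, 1 fit of all arrays, no trend, arrays left out and a replicate block.

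Tested on simulated data with 200 of 9776 probe sets changed, in 10 draws, the fit recovered 82.1% of 2-fold and 54.1% of 1.5-fold changes for IP versus Rh1 heads, with 15.2% false calls. In Rh1 heads versus CS heads it recovered 99.7% and 95.5% with 10.1% false, and for IP versus CS heads 92.1% and 72.6% with 37.6% false. These shares of false calls belong to 200 changed probe sets and not to the larger numbers called on the real arrays. No pair of replicates held over 1 identical value, so each array was counted once.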

Additional observations from a re-analysis of the deposited data

How the results depend on the processing

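Of 320 refits of the 5 genes' folds, 297 kept direction and side of the threshold. With direction kept, 7 lost the call and 3 gained it. The other 13, all in IP versus CS heads, turned and were counted as turned whatever their call. Some of these also changed their call: trp passed without IP replicate 4, and trpl did not pass with quantile normalization. The causes were not tested except where the setting itself leaves out arrays. Other filters, no trend and 1 fit of all arrays leave the fold itself unchanged, so in those refits only the call could move. For inaC in IP versus Rh1 heads the folds with 1 array left out ran from 1.19 to 2.07, for Calx from 0.20 to 0.81. Both were past the threshold in some. Without IP replicates 2 and 4 the folds were 2.34 for inaC and 0.65 for Calx. Calx in Rh1 heads versus CS heads had -0.47 with all arrays in 1 fit (limma adjusted p = 0.187), and 3013 probe sets were then called in place of 5293. Array weights called 6969 in IP versus Rh1 heads in place of 4630.

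In IP versus CS heads the folds with 1 array left out ran from -0.28 to 0.27 for trp, -0.29 to 0.053 for inaD, -1.11 to -0.23 for inaC and -0.27 to 0.34 for Calx. Quantile normalization gave 0.32 for trp, 0.042 for trpl and 0.045 for inaD. Without IP replicates 2 and 4 the folds were 0.31 for trp (limma adjusted p = 0.00643), 0.025 for inaD, 0.044 for inaC and 0.18 for Calx. Array weights gave 0.19 for trp (limma adjusted p = 0.0473), and median scaling 0.003 for Calx. Of 460 recomputed pair differences 439 kept direction and, where a test was possible, side, and 11 that had not passed turned. In IP versus Rh1 heads trp minus inaD was 0.0044 with an added constant of 64, 0.11 with quantile normalization, and -0.094 to 0.12 with 1 array left out. In IP versus CS heads quantile normalization gave 0.36 for trp minus Calx, 0.075 for trpl minus Calx and 0.078 for inaD minus Calx, and with 1 array left out -0.55 to 0.54 for trp minus Calx, -0.16 to 0.53 for trpl minus inaC, -0.62 to 0.32 for inaD minus Calx and -1.11 to 0.038 for inaC minus Calx.

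With 1 IP or Rh1 head array left out, pair tests between IP and Rh1 heads cannot go below an exact p of 0.0571. The numbers shared by Rh1 heads and CS heads did not pair them (r of same-numbered deviations -0.08, -0.04, -0.11 and 0.10). The replicate block gave 4699 called probe sets and folds of -2.52 for trp, -3.26 for trpl, -2.58 for inaD, -2.37 for inaC and -0.50 for Calx, and changed no call. IP numbers are accession order and pair nothing, and each gene has 1 probe set, so no other probe set could be tried. In IP versus Rh1 heads the folds of inaC, Calx and trp had the largest errors of the 5.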

Other observations

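In CS heads, where all 6 arrays come from 1 wild-type strain, the 5 genes differed in how steady they were. Calx had an SD of 0.24 on the log2 scale, larger than that of 96.4% of the tested probe sets in this group, with 428.6 and 444.6 on replicates 5 and 3 and 536.5 to 631.4 on the other 4. inaC had 0.17, larger than 87.8%, with 3693 to 4081 on replicates 1, 2 and 3 and 3097 to 3226 on replicates 4, 5 and 6. trpl had 0.06, larger than 16.4%, and its 6 arrays lay within 7035 to 7801. In Rh1 heads Calx was again the least steady of the 5 (0.16, larger than 84.8%) and inaD the most (0.04, larger than 8.89%).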
